A study of Mus musculus and Rattus norvegicus with 26 samples.

Results

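Contactins and contactin-associated proteins are cell surface proteins of nerve cells, and several of their genes have very long introns. Sequence reads from the introns of 9 of these genes, Cntn1 to Cntn6, Cntnap1, Cntnap2 and Cntnap4, were examined in 6 lists of intron contigs. The genes were taken by symbol from a list of names that leaves out the related Cntnap3 and Cntnap5 genes, described at the end. The rule uses no measured value, but the list was drawn up with earlier results of these data known. They accounted for 345 of the 112345 contigs in the lists, and for 9 of the 13686 gene symbols, with mouse and rat symbols that differ only in capitals counted once.

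The study asked whether transcripts that keep part of an intron are present outside the nucleus, and called them cytoplasmic intron-sequence retaining transcripts (CIRTs). The labels give 26 RNA-seq libraries for the 4 mouse lists and 2 rat lists. Mouse dendrites (3 libraries) and mouse somas (3 libraries) came from cultured hippocampal neurons of C57BL/6 embryos of day 18. Rat dendrites (2 libraries) and rat somas (3 libraries) came from Sprague-Dawley embryos of the same age. Dendrites were severed by hand and pooled for each library, and each soma was a single cell. The study states that the dissection did not separate axons from dendrites, and that axons have a far smaller volume. The brown adipose tissue (BAT) list belongs to 6 labelled libraries of single cells of CD-1 mouse embryos of day 17.5, picked by their morphology. The cardiomyocyte list belongs to 9 labelled libraries of single ventricular cells of C57BL/6 mice at embryonic day 14.5. The cells were hemizygous for a Fucci cell cycle reporter, mAG-hGem(1/110), under the CMV promoter, and had been sorted by flow cytometry. The study writes of a hemizygous embryo in the singular, so the cells may come from a single animal. The numbers of libraries are those of the labels. The study's text names fewer single BAT cells and cardiomyocytes, and the lists do not show which libraries gave which reads. All RNA went through 3 rounds of amplification with oligo(dT) primers (aRNA). Strand was not kept in sequencing, so reads of a gene and of an antisense transcript in the same place cannot be told apart.

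A contig is a run of uniquely mapped intron reads in which neighbours lie no more than a set distance apart. Each line of a list gives a contig, its RefSeq transcript, its intron number counted from the 5′ end, and a read count for the whole intron. The lists held from 1855447 reads in mouse somas to 17858440 in BAT cells, and 1007530 and 2094541 in rat dendrites and somas. Levels are given as RPM, the reads of a gene per 1000000 listed reads. Each list pools its libraries, so there is 1 value per gene and list, with no replicate error and no test between lists. Intervals given below are 95% Wilson intervals. They cover counting error only, since reads amplified by PCR and aRNA are not independent molecules. A gene read strongly in 1 cell and a gene read weakly in every cell cannot be told apart either.

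Contactins are immunoglobulin superfamily proteins held to the membrane by a lipid anchor, and the contactin-associated proteins (also called Caspr) span the membrane and are relatives of the neurexins. They bind each other along one membrane and bind partners on other cells during axon growth, myelination and synapse formation. Cntn1 and Cntnap1 form the axonal side of the junction between axon and myelin next to the node of Ranvier, while Cntn2 and Cntnap2 hold potassium channels in the neighbouring stretch of the axon.

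In the mouse build mm9, Cntn3 (chr6:102113300-102414661, minus strand), Cntn6 (chr6:104442916-104813400, plus strand) and Cntn4 (chr6:105627739-106649299, plus strand) lie close together on chromosome 6, and Cntnap2 (chr6:45010060-47251368, plus strand) is on the same chromosome. Cntn1 is at chr15:91881596-92172398 (plus strand), Cntn2 at chr1:134411956-134439516 (minus strand) and Cntn5 at chr9:9660969-10904775 (minus strand). Cntnap1 is at chr11:101037355-101052038 (plus strand) and Cntnap4 at chr8:115093943-115406605 (plus strand).

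The sequences of some shared stretches are given first. For each mouse list, the member intron with the most reads held a stretch that contigs of at least 1 other mouse list also covered. They are given on the strand of the gene, from the mouse build mm9, and for the longest only the 200 bases at the 3′ end are shown. The lists give reads per intron, so no read count belongs to a stretch. Some of them are partly repeated: of the 50-base words in the BAT contigs that match the stretches of Cntn5 intron 15 and Cntn3 intron 3, 35.2% and 75% occur once in the mouse genome, the rest in up to 2 and 574 copies.
Cntn3 intron 3, mouse dendrites, mouse somas and BAT cells (chr6:102363454-102363594, minus strand): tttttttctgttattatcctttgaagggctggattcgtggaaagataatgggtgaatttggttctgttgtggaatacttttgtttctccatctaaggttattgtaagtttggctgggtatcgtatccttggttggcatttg
Cntn5 intron 16, mouse somas and mouse dendrites (chr9:9755713-9755912, minus strand): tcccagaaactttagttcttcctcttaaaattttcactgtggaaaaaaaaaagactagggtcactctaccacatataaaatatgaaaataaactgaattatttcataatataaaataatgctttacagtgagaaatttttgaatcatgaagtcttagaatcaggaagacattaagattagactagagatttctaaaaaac
Cntnap4 intron 3, BAT cells and mouse somas (chr8:115192752-115192836, plus strand): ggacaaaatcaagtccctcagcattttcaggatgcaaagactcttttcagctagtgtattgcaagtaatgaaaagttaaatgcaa
Cntn5 intron 15, cardiomyocytes and BAT cells (chr9:9812044-9812220, minus strand): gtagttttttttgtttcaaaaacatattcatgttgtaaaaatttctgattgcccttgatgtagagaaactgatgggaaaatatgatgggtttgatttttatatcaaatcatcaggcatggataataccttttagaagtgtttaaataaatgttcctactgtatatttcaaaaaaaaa

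The oligo(dT) primer used for amplification can pair with runs of A inside a transcript, so the bases just beyond the contigs were read from the genome. Over the introns that led for a gene in at least 1 mouse list, and with the contigs of all 4 mouse lists in them, 9 contig ends lay, in sense direction, within 20 bases of a run of 10 or more A. Of these ends, 3 are shown, chosen after their values were seen, each with the last 60 bases of the contig and the bases up to the end of the run, and the capitals mark the run of A.
Cntn3 intron 3, mouse somas (chr6:102288237-102288318, minus strand): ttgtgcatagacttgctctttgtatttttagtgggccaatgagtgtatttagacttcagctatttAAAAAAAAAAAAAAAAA
Cntn5 intron 6, mouse somas (chr9:10128383-10128465, minus strand): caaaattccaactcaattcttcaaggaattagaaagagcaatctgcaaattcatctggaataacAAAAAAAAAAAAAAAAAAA
Cntnap4 intron 3, mouse dendrites and mouse somas (chr8:115211624-115211703, plus strand): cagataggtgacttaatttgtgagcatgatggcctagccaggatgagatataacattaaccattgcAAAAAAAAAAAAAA
The contigs of mouse dendrites and of mouse somas in Cntnap4 intron 3 ended at the same base, 6 bases before a run of 14 A.

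Over contigs of all lengths, the 9 genes together took a larger share of the listed reads in mouse somas than in any other list. The order depended on contig length. Reads are given per intron, so a limit on length can only choose introns. The first limit took introns with at least 1 contig of at most 400 nt, with all their reads counted. There the intervals of mouse somas, 0.617% (0.601 to 0.634), and BAT cells, 0.618% (0.613 to 0.624), overlapped. The share in mouse dendrites was 0.334%. Over introns in which every contig was at most 400 nt, the share was 0.0406% in mouse somas (152 reads) and 0.127% in BAT cells. It was 0.0854% in mouse dendrites and 0.0740% in cardiomyocytes, so that mouse somas came last of the mouse lists. The values that follow are over all lengths. The share was 0.752% of the reads in mouse somas (interval 0.740 to 0.765), 0.271% in BAT cells (0.269 to 0.273), 0.247% in mouse dendrites (0.241 to 0.252) and 0.0226% in cardiomyocytes (0.0218 to 0.0235). In rat the share was 0.0780% in dendrites (0.0727 to 0.0837) and 0.0456% in somas (0.0428 to 0.0486). The order of soma and dendrite was thus the opposite of that in mouse. With every contig at most 400 nt, rat dendrites had 0.0372% (83 reads) and rat somas 0.00478% (12 reads). Under that limit dendrites came above somas in both species. Counted by introns, the mouse lists were closer to each other: 0.350% of the listed introns in somas (0.254 to 0.482), 0.257% in dendrites (0.195 to 0.338), 0.177% in BAT cells (0.135 to 0.231) and 0.107% in cardiomyocytes (0.0639 to 0.180). The median intron of these genes carried 134 reads in mouse somas and 55.5 in mouse dendrites, where the medians over all introns of the lists were 22 and 24. It was below the median of all introns in the other lists, with 25 reads against 29 in BAT cells, 29 against 53 in cardiomyocytes, 6.5 against 14 in rat dendrites and 8 against 24 in rat somas. A single intron, Cntnap4 intron 3, made up 59.6% of the reads of the 9 genes in BAT cells, and without it their share there was 0.110%. Without the most-read intron of these genes in mouse dendrites the share there was 0.209%, so the order of BAT cells and mouse dendrites turned.

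All 9 genes were listed in BAT cells, 8 in mouse dendrites, 6 in cardiomyocytes and 5 in mouse somas. Of the 12467 genes in any mouse list, 82.0% were listed in BAT cells, 69.0% in mouse dendrites, 49.8% in cardiomyocytes and 47.3% in mouse somas. Genes with much intron sequence offer more room for contigs, and 7 of the 9 genes (all but Cntn2 and Cntnap1) hold at least 200 kb of introns. All 7 were listed in mouse dendrites and in BAT cells, 5 in mouse somas and 4 in cardiomyocytes. The shares of all annotated coding genes of that size were 79.3%, 78.9%, 64.7% and 60.1%. All shares for that size also count genes that are in no list. The 7 genes are each in a mouse list, so their counts lie above such shares in part by construction. An intron of 32 reads or more was found for 8 of the 9 genes in mouse dendrites (43.1% of genes), 7 in BAT cells (55.7%), 5 in cardiomyocytes (32.3%) and 4 in mouse somas (25.6%). Of the 7 long genes, 7 had one in mouse dendrites, 6 in BAT cells, 4 in mouse somas and 4 in cardiomyocytes, beside 68.9%, 67.8%, 48.1% and 42.7% of all genes of that size. In rat, 5 of the genes appeared in any list. All 5 were in rat dendrites (78.5% of the 5712 genes of the rat lists) and 4 in rat somas (59.4%). An intron of 32 reads or more was found for 4 of the 5 in rat dendrites (38.1%) and for 2, Cntn3 and Cntnap4, in rat somas (32.7%).

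**Figure D1:**
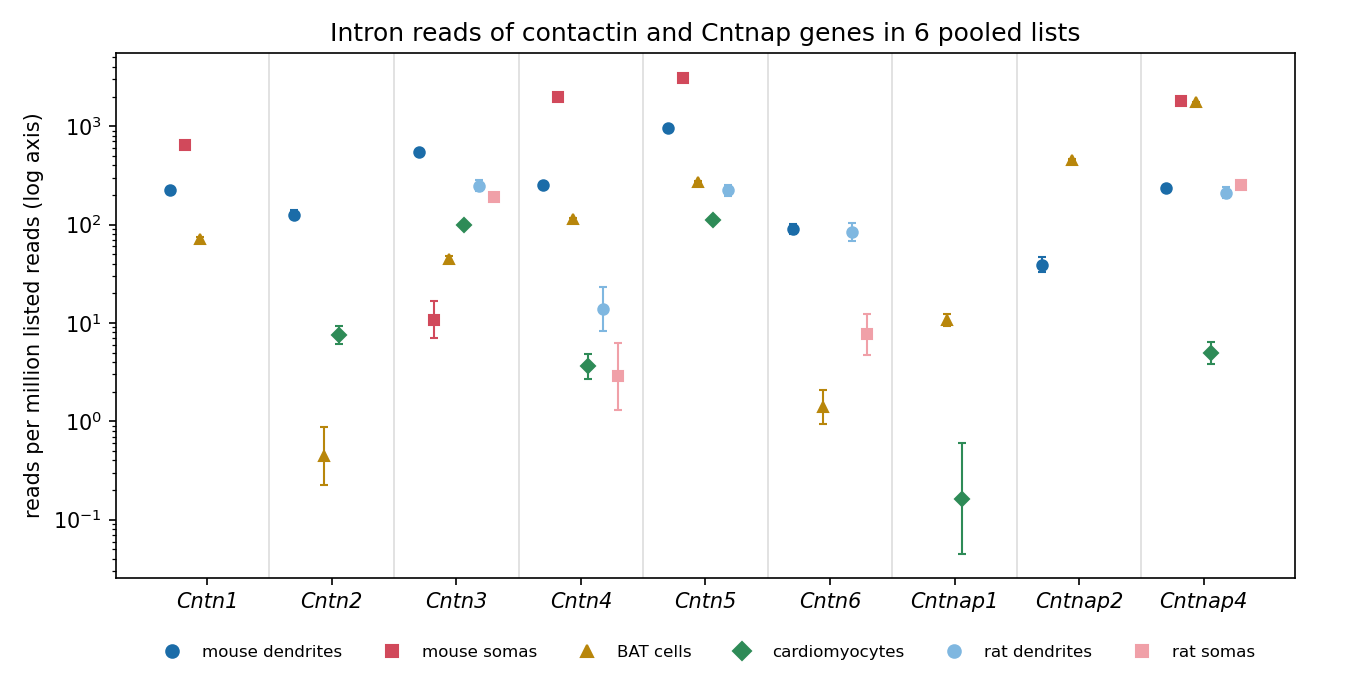
Reads in introns of each gene in RPM (vertical log axis) in the 6 pooled lists, with 95% Wilson intervals for counting error; a gene without a point in a list is not listed there. Over introns with contigs of all lengths, Cntn1, Cntn4 and Cntn5 sit highest in mouse somas, Cntn2, Cntn3 and Cntn6 in mouse dendrites, and Cntnap2 in BAT cells; the order of somas and dendrites for Cntn1, Cntn4 and Cntn5 turns under a limit on contig length.

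The paranodal contactin, Cntn1, was listed in 3 lists, all from mouse. Its introns held 1194 reads in mouse somas, 687 in mouse dendrites and 1275 in BAT cells, and no contig was listed in cardiomyocytes or rat. In RPM these were 644 (608 to 681), 223 (207 to 240) and 71.4 (67.6 to 75.4), and no 2 of the intervals overlapped. Intron 23, the last and 21.4 kb long, led in both neuronal lists, with 866 and 318 reads. In BAT cells it held 6 reads, and introns 9, 6 and 7 led with 634, 494 and 109 reads. These last 3 introns were listed in no other mouse list. Both contigs of BAT cells in intron 9 touched an annotated retained-intron transcript of the gene, Cntn1-003. Elsewhere in the mouse lists, a soma contig of Cntn4 intron 19 (174 reads) lay within an exon of the coding transcript Cntn4-006, and a soma contig of Cntnap4 intron 21 touched the retained-intron transcript Cntnap4-002.

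The juxtaparanodal contactin, Cntn2, had a single listed intron in each of 3 lists. Intron 10 held 390 reads in mouse dendrites and 92 in cardiomyocytes, and intron 19 held 8 reads in BAT cells. In RPM these were 126, 7.54 and 0.448. The contig of cardiomyocytes, 251 nt long (chr1:134421442-134421692), lay wholly inside the 683 nt contig of mouse dendrites. Intron 10 is 1563 nt long, so the dendrite contig covered 43.7% of it. No contig of Cntn2 was listed in mouse somas.

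Cntn3, a contactin that binds the receptor phosphatase Ptprg, was listed in all 6 lists, highest in mouse dendrites and lowest in mouse somas. It had 1671 reads in mouse dendrites, 1211 in cardiomyocytes, 803 in BAT cells and 20 in mouse somas. Rat dendrites had 251 reads and rat somas 400. In RPM the levels ran from 541 in mouse dendrites over 249 in rat dendrites, 191 in rat somas, 99.3 in cardiomyocytes and 45.0 in BAT cells to 10.8 in mouse somas, with no overlap between neighbouring intervals. Intron 3 gave 1154 of the dendrite reads in 8 contigs, and 10 of the soma reads in 4. Introns 1, 3 and 4 were listed in all 4 mouse lists. Intron 4 led in cardiomyocytes with 795 reads and in BAT cells with 370, but held 4 reads in mouse dendrites and 8 in mouse somas. In the rat, intron 3 led in dendrites with 198 reads, and intron 12 led in somas with 394 reads of 400.

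Cntn4, which binds the amyloid precursor protein, was most read in mouse somas. Its introns, listed under 2 RefSeq transcripts, held 3667 reads in mouse somas, 782 in mouse dendrites, 2009 in BAT cells and 44 in cardiomyocytes, with 14 in rat dendrites and 6 in rat somas. These were 1976 RPM in mouse somas, 253 in mouse dendrites, 112 in BAT cells and 3.61 in cardiomyocytes. The cardiomyocyte and rat soma intervals overlapped, and no other neighbours in the order did. Intron 8 led in all 3 of the first lists, with 1578, 266 and 996 reads. Mouse somas had in it a contig of 5691 nt (chr6:106398495-106404185), the longest of all 12931 contigs in that list. Within this span, contigs of mouse dendrites and of BAT cells covered separate stretches of 216 and 426 nt. Introns 14 and 24 were listed in all 4 mouse lists. In cardiomyocytes 42 of the 44 reads lay in intron 14.

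Cntn5, known from the auditory pathway and from sensory synapses where it pairs with Cntnap4, was listed in all 4 mouse lists. Its read counts were 5728 in mouse somas, 2972 in mouse dendrites, 4836 in BAT cells and 1349 in cardiomyocytes. In RPM these were 3087 (3008 to 3168), 963 (929 to 998), 271 (263 to 279) and 111 (105 to 117). By reads it ranked 40 of 5895 genes in mouse somas, 169 of 8607 in mouse dendrites, 855 of 10220 in BAT cells and 1522 of 6205 in cardiomyocytes. A different intron led in most lists. Intron 15 led in mouse dendrites with 797 reads and in cardiomyocytes with 1078, intron 16 led in mouse somas with 2135, and intron 6 led in BAT cells with 3249. Intron 16 held 137 reads in mouse dendrites and 11 in BAT cells. Rat dendrites had 1 listed intron, intron 3, with 224 reads, and rat somas had none. In the mouse, introns 1, 2 and 3 of Cntn5, each over 200 kb long, held no contig in any list.

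Cntn6, a ligand of Notch1, was read mostly in the dendrite lists. It had 277 reads in mouse dendrites and 25 in BAT cells, and was not listed in mouse somas or cardiomyocytes. Rat dendrites had 85 reads in 5 introns and rat somas 16 in 2. The levels of the dendrite lists, 89.7 RPM in mouse (79.8 to 101) and 84.4 in rat (68.2 to 104), had overlapping intervals. Rat somas had 7.64 (4.70 to 12.4). Intron 19, 1877 nt long, led in mouse dendrites with 257 reads in a contig of 925 nt. In the rat transcript, whose intron numbers were not matched to those of the mouse, the intron numbered 19 led in somas with 10 reads and intron 3 led in dendrites with 71.

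Cntnap1, the partner of Cntn1, was listed in BAT cells and cardiomyocytes, in 1 intron each. Intron 8 held 191 reads in BAT cells, in a contig that covered 59.8% of its 660 nt. Intron 7 held 2 reads in cardiomyocytes, which is below the 3 reads used as a floor. No contig was listed in the 4 neuronal lists. With a floor of 3 reads, a count of 0 allows up to 0.972 RPM in mouse dendrites and 1.62 in mouse somas, and the Wilson upper limits were 1.24 and 2.07, where the value of BAT cells was 10.7 (9.28 to 12.3). The gene spans 14.7 kb and has 9.24 kb of introns, the least of the 9.

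Cntnap2, one of the largest genes of the genome, had 2234 kb of introns and few contigs. Intron 5 held 8104 reads in BAT cells, in contigs of 293 and 1518 nt, and 34 reads in mouse dendrites. A further 87 reads in mouse dendrites were listed under a short transcript of the gene (NM_025771), in its intron 3. This transcript lies within the span of the long one, and intron reads do not show which of them they came from. No contig of Cntnap2 was listed in mouse somas, cardiomyocytes or rat. The level was 454 RPM in BAT cells (444 to 464) and 39.2 in mouse dendrites (32.8 to 46.8). Of the contig of 293 nt in BAT cells, 192 nt were also covered in mouse dendrites (chr6:45944469-45944660). Intron 1, at 594 kb the longest intron of the 9 genes, was unlisted in every mouse list.

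Cntnap4, found at inhibitory and dopaminergic synapses, was the only one of Cntnap1, Cntnap2 and Cntnap4 in all 6 lists. It had 31144 reads in BAT cells, 3352 in mouse somas, 717 in mouse dendrites and 60 in cardiomyocytes, and 533 in rat somas and 212 in rat dendrites. In RPM, mouse somas at 1807 (1746 to 1869) and BAT cells at 1744 (1725 to 1763) had overlapping intervals. Rat somas at 254, mouse dendrites at 232 and rat dendrites at 210 formed a second level, in which neighbours overlapped as well. Cardiomyocytes had 4.92 (3.82 to 6.33). The reads did not lie in the same introns. In BAT cells 92.6% were in intron 3, with 28841 reads in 5 contigs, and intron 2 had 1926. In mouse dendrites intron 3 also led, with 455 reads. In mouse somas intron 23, the last, led with 1264 reads, intron 20 had 1084 and intron 3 had 267. The soma contig in intron 20 covered 84.6% of its 814 nt. None of the 5 BAT contigs in intron 3 held a 50-base word that occurs elsewhere in the mouse genome.

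**Figure D2:**
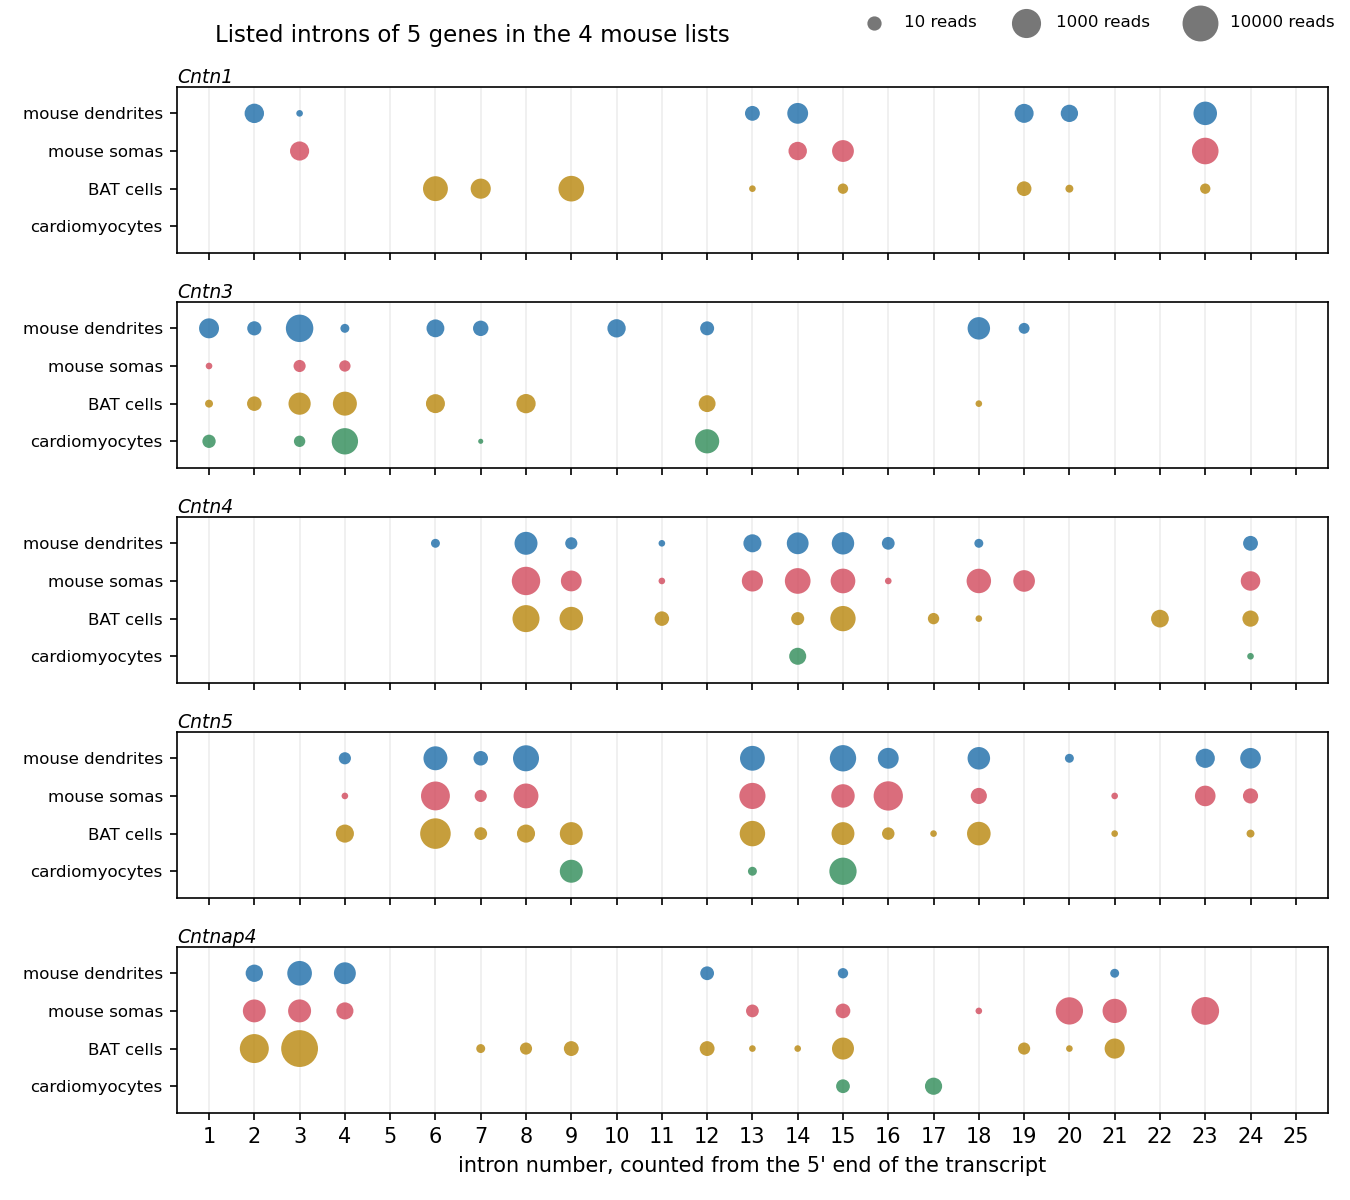
Listed introns of the 5 genes with the most listed introns, by intron number (horizontal axis) and mouse list (rows); the area of a point grows with the log of the intron's read count. Most introns of Cntn5 recur in several lists, while Cntn1 introns 6, 7 and 9 appear in BAT cells only.

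The genes differ in intron length by over 200 times, so their levels were set side by side only per kb of intron. In RPM per kb of intron, over contigs of all lengths, Cntn2 came first in mouse dendrites at 5.27, ahead of Cntn3 at 1.83. That value of Cntn2 rests on 1 contig. Cntnap4 came first in mouse somas at 5.86, ahead of Cntn5 at 2.49, and in BAT cells at 5.66, ahead of Cntnap1 at 1.16. In BAT cells 92.6% of the reads of Cntnap4 lay in intron 3. In cardiomyocytes Cntn3 and Cntn2 led at 0.335 and 0.314. Cntnap2, with the most intron sequence, had 0.0175 in mouse dendrites and 0.203 in BAT cells.

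Soma and dendrite lists of the mouse can be set side by side for the 5 genes in both. On the log2 scale, the ratio of RPM in somas to those in dendrites was 2.96 for Cntn4 (2.85 to 3.07), 2.96 for Cntnap4 (2.84 to 3.08), 1.68 for Cntn5 (1.62 to 1.74) and 1.53 for Cntn1 (1.40 to 1.67). For Cntn3 it was -5.65 (-6.29 to -5.01). The median over the 4739 genes in both lists was -0.27, with a 5th percentile of -6.85 and a 95th percentile of 5.81, so each of these ratios lies within the range of genes in general. Of these directions, only that of Cntn3 clearly held under both limits on contig length. Those of Cntn1, Cntn4 and Cntn5 turned under at least 1 limit, and that of Cntnap4 did not turn. Over introns with at least 1 contig of at most 400 nt, the ratio turned for Cntn1 to -0.74 (-1.01 to -0.48), from 144 and 477 reads, and for Cntn5 to -0.44 (-0.54 to -0.34), from 1105 and 2972 reads. It stayed at 2.91 for Cntn4 and 2.90 for Cntnap4. Over introns in which every contig was at most 400 nt, the ratio was -5.11 for Cntn4 on 4 and 308 reads and -1.25 for Cntn5 on 46 and 244. It was 2.90 for Cntn1 on 80 and 24 and 0.05 for Cntnap4 (-0.94 to 1.03) on 12 and 26. Cntn3 was at -5.04 and -2.35 under these limits. Under either limit Cntn2, Cntn6 and Cntnap2 had no intron left in mouse dendrites. In the rat, where 4 genes were in both lists, the same ratio, over contigs of all lengths, was 0.27 for Cntnap4 (0.04 to 0.50), -0.38 for Cntn3 (-0.61 to -0.16), -2.28 for Cntn4 (-3.66 to -0.90) and -3.47 for Cntn6 (-4.24 to -2.69). The median over 2166 rat genes was -0.73. Over contigs of all lengths Cntn4 thus stood higher in somas in the mouse and higher in dendrites in the rat, where it rested on 6 and 14 reads.

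The listed introns recurred across cell types. The 4 mouse lists named 74 different introns of the 9 genes, of which 47 (63.5%) were in 2 or more lists, 25 of those in 3 or 4. Over all genes 39.5% of 46599 introns were in 2 or more lists. Much of this gap goes with intron length: of introns of at least 10 kb, 31 of 35 (88.6%, 74.0 to 95.5) of these genes and 75.2% of 5726 of all genes were in 2 or more lists. Below 10 kb the shares were 16 of 39 (41.0%, 27.1 to 56.6) and 34.3%. In both length classes the interval of these genes holds the value of all genes. The shares by pair of lists that follow are not matched for intron length. Mouse dendrites and mouse somas shared 30 introns of these genes, 30 of the 50 in dendrites and 81.1% of those in somas, where all genes had 25.9% and 47.8%. Mouse dendrites and BAT cells shared 34, or 68.0% and 64.2%, beside 48.6% and 31.6% of all. BAT cells and cardiomyocytes shared 10, or 18.9% and 71.4%, near the 26.1% and 60.01% of all genes.

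Fewer than 50% of the shared introns held a shared stretch. Of the 30 introns shared by mouse dendrites and somas, 11 (36.7%, 21.9 to 54.5) held contigs that overlapped by at least 1 base. Among all genes this share was 58.1%, and 44.5% for introns of at least 10 kb, where the 9 genes had 8 of 24 (33.3%, 18.0 to 53.3). Mouse dendrites and BAT cells overlapped in 7 of 34 shared introns (20.6%, against 44.2% of all), and mouse somas and BAT cells in 9 of 28 (32.1%, against 52.6%). For introns of at least 10 kb the gap was smaller or gone, with 6 of 26 (23.1%) against 33.2% for dendrites and BAT cells, and 33.3% against 32.7% for somas and BAT cells. Mouse somas and cardiomyocytes shared 8 introns with no overlap (interval 0 to 32.4%), all of at least 10 kb, where 34.1% of the shared introns of all genes overlapped. The 4 introns shared by rat dendrites and rat somas had none either, against 66.5% of all, but intron lengths were not used for the rat, and 4 introns are few.

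Intron 13 of Cntn5 held both shared and separate stretches. It is 137 kb long and held 12 contigs in mouse dendrites, 12 in mouse somas, 13 in BAT cells and 3 in cardiomyocytes, the most contigs of any intron of these genes. The reads were 482, 748, 592 and 4. The contigs covered 3.72%, 6.00% and 3.43% of the intron in the first 3 lists. In all, 7 stretches were common to a pair of lists: 4 between mouse dendrites and somas, 2 between mouse dendrites and BAT cells and 1 between mouse somas and BAT cells. The 3 contigs of cardiomyocytes were 99, 99 and 100 nt long, and none of their 50-base words occurs only once in the mouse genome.

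**Figure D3:**
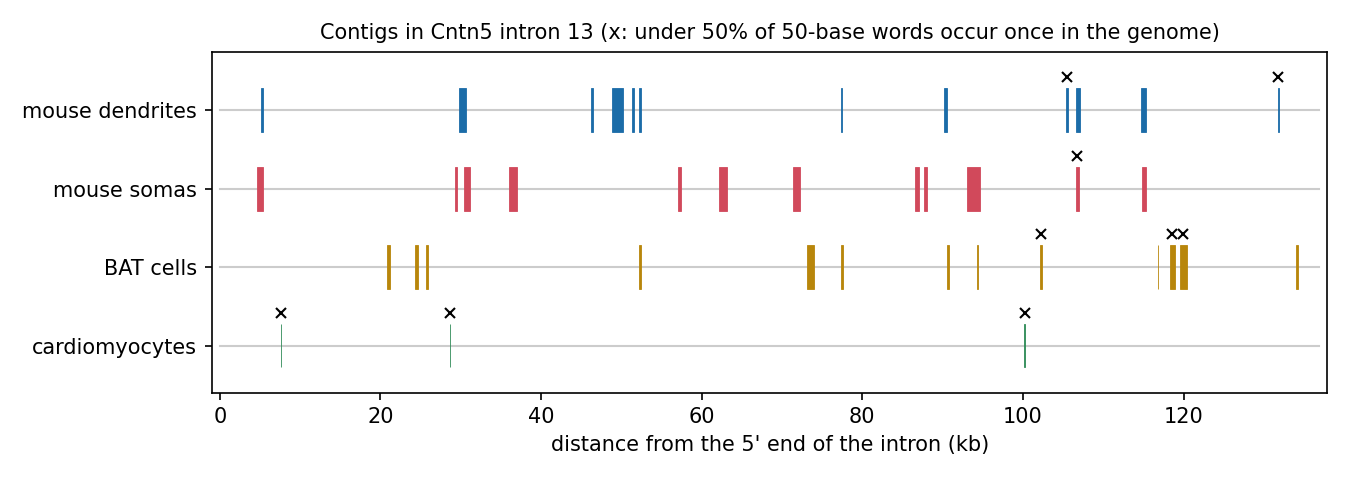
Contigs of the 4 mouse lists in Cntn5 intron 13, drawn to scale by distance from the 5′ end of the intron in kb; a cross marks contigs in which under 50% of the 50-base words occur once in the mouse genome. The 12, 12 and 13 contigs of mouse dendrites, mouse somas and BAT cells lie at many places along the intron, and all 3 cardiomyocyte contigs carry a cross.

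Listed introns of these genes were longer than the others. The transcripts were matched to GENCODE, which gave 208 different introns. The 74 listed introns had a median length of 9.33 kb, and the 134 others 1.90 kb. For all genes the medians were 2.61 and 1.07 kb. In all, 27.0% of the introns of these genes held a contig in mouse dendrites, 31.9% in mouse somas, 25.6% in BAT cells and 10.1% in cardiomyocytes, where all listed transcripts had 16.5%, 12.3%, 22.8% and 15.2%. Among introns of 10 to 100 kb, the share with a contig was 50.0% in mouse dendrites (30 of 60, 37.7 to 62.3), 65.8% in mouse somas (25 of 38, 49.9 to 78.8), 47.5% in BAT cells (28 of 59, 35.3 to 60) and 27.8% in cardiomyocytes (10 of 36, 15.8 to 44.0). In all listed transcripts it was 37.0%, 27.4%, 39.3% and 26.7%. Only the interval of mouse somas lay clear of the value for all transcripts by a wide margin. Among introns of at least 100 kb, 1 of 14 in mouse dendrites and in BAT cells was listed, Cntn5 intron 13, where all transcripts had 17.5% and 17.9%. In mouse somas and cardiomyocytes it was again the only one, of 8 and 7 such introns, beside 18.8% and 19.0%. The intervals of these shares, such as 1.27 to 31.5% in mouse dendrites, hold the values of all transcripts. The lists leave out introns that the study's filters removed, so an unlisted intron is not shown to be unread.

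**Figure D4:**
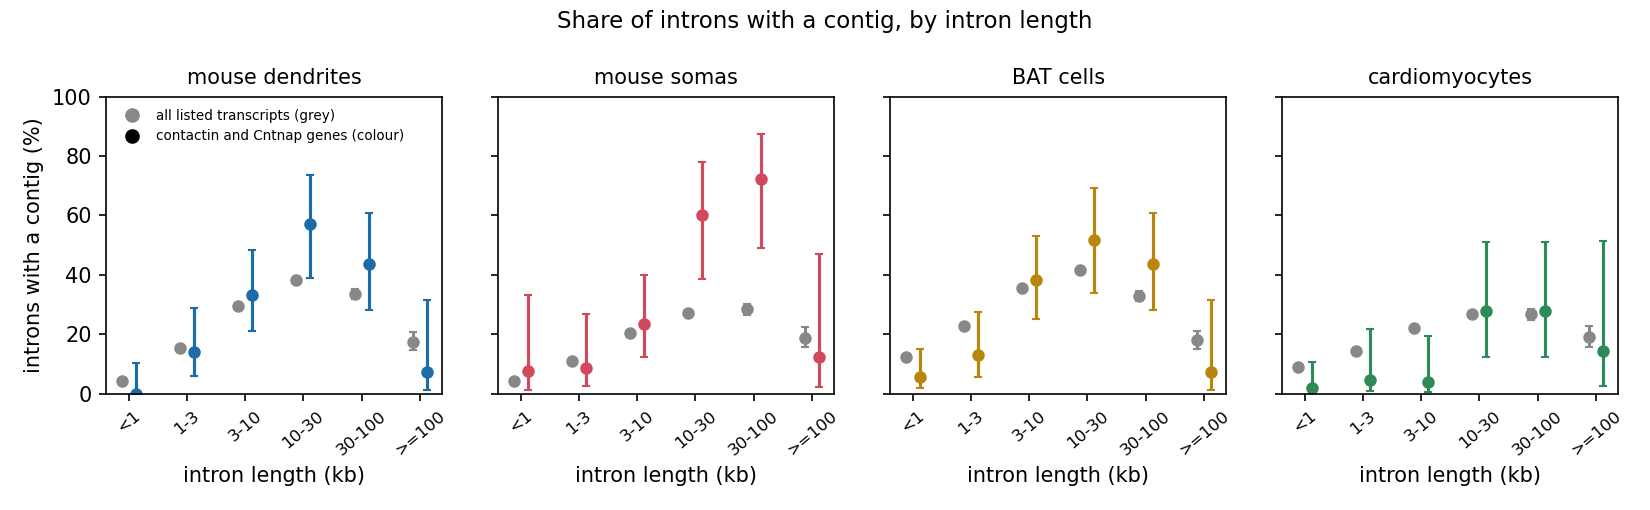
Share of introns with a contig (%, vertical axis) by intron length in kb, for listed transcripts of the 9 genes (colour) and of all genes (grey) in each mouse list, with 95% Wilson intervals. The share of the 9 genes is highest from 10 to 100 kb, where mouse somas reach 65.8% against 27.4% for all transcripts, and at 100 kb and over its interval holds the value of all transcripts.

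Among the mouse lists, contigs of these genes had the highest mean and median length in mouse somas. The mean length there was 675 nt ± 769 (SD, n = 76 contigs) with a median of 494.5 nt, where all contigs of the list had a mean of 391 nt and a median of 277 nt. In mouse dendrites the mean was 403 nt ± 286 (SD, n = 111) beside 352 nt, in BAT cells 356 nt ± 297 (n = 118) beside 395 nt, and in cardiomyocytes 239 nt ± 147 (n = 16) beside 409 nt. The rat lists had means of 406 nt ± 235 (n = 15) in dendrites and 459 nt ± 269 (n = 9) in somas. Contigs of 1000 nt or more made up 17.1% of the soma contigs (13 of 76) and 4.56% of all contigs of that list. Contigs of at most 400 nt made up 36.8% of the contigs of these genes in mouse somas, where all contigs had 67.3%. They made up 74.6% in BAT cells beside 66.1%, 71 of 111 contigs in mouse dendrites beside 72.5%, and 87.5% in cardiomyocytes beside 63.8%.

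**Figure D5:**
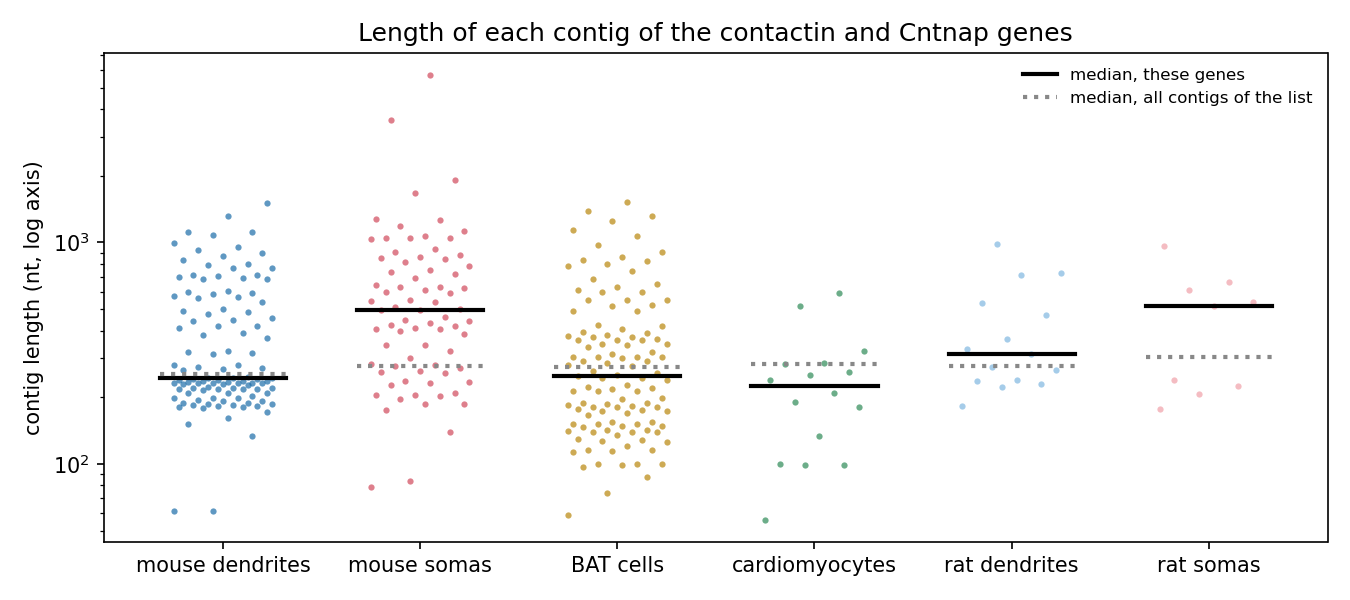
Length in nt (log axis) of each contig of the 9 genes in the 6 lists, with the median of these contigs (solid line) and of all contigs of the list (dotted line). The solid line of mouse somas, 494.5 nt, is well above its dotted line at 277 nt, and rat somas show the same order at 514 and 303 nt on 9 contigs.

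Runs of A beyond the contigs were most frequent in mouse somas. A run of 10 or more A within 300 nt downstream, on the strand of the gene, was found for 17 of 76 contigs in mouse somas (22.4%, 14.5 to 32.9), 9 of 111 in mouse dendrites (8.11%, 4.32 to 14.7), 3 of 118 in BAT cells (2.54%, 0.868 to 7.21) and 2 of 16 in cardiomyocytes (12.5%, 3.50 to 36.0). The shares of all contigs were 18.6%, 8.11%, 7.36% and 9.53%. A run can also lie inside the contig: in Cntn3 intron 3, the soma contig ended 5 bases before the 17 A, and a dendrite contig covered them. With runs in the last 100 nt of the contig counted as well, the shares were 36.8%, 13.5%, 5.93% and 25.0%, where all contigs had 26.6%, 14.9%, 11.8% and 18.2%. Since strand was not kept, runs of 10 or more T upstream were counted as well. They were found for 8.11% of these contigs in mouse dendrites, 7.89% in mouse somas, 8.47% in BAT cells and 12.5% in cardiomyocytes, beside 12.6%, 11.4%, 8.95% and 7.61% of all contigs. The part of these runs in the reads was not tested.

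Many of the contigs hold repeated sequence. In 74 of 111 contigs of mouse dendrites, 56 of 76 of mouse somas, 79 of 118 of BAT cells and 10 of 16 of cardiomyocytes, every word of 50 bases, the length of a read, occurs once in the mouse genome. Fewer than 50% of the words occurred once in 7, 3, 20 and 4 contigs. Cntnap4 intron 23 in mouse somas is an example, with 47.4% of the words of its 205 nt contig found once. The word at the centre of the contig occurred once for 90.1% of these contigs in mouse dendrites, 93.4% in mouse somas, 81.4% in BAT cells (73.4 to 87.4) and 81.3% in cardiomyocytes, and for 91.3%, 94.0%, 88.8% and 88.2% of all contigs. When only contigs with at least 50% of such words were kept, 47 of 73 introns were still in 2 or more mouse lists, but 6 in place of 8 were in all 4, since Cntn5 intron 13 and Cntnap4 intron 15 dropped out of cardiomyocytes.

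The identity of the cells bears on the BAT values. Of 10 brown adipocyte markers, 8 were listed in BAT cells, with 10283 RPM in sum, and Ppargc1a and Elovl3 were at 0. Other mouse lists had 83.5 to 841. Of 14 neuron markers, 13 were also listed in BAT cells, with 1897 in sum, where mouse dendrites had 3281, mouse somas 17790 and cardiomyocytes 1001. Map2 was at 0 in every list. Syt1, the calcium sensor of synaptic vesicles, was at 455 RPM in BAT cells and at 0 in cardiomyocytes, while Camk2a, a synaptic kinase, was at 0.056 RPM (1 read) in BAT cells and 369 RPM in cardiomyocytes, and Dlg2, a synaptic scaffold, at 573 and 554. Markers of other cells were listed as well: BAT cells held 8 of the 12 cardiomyocyte markers, with 2102 RPM in sum, mouse dendrites held 7, with 1249, and mouse somas 5, with 1143. Of 5 endothelial markers, mouse dendrites held 4, with 639, and mouse somas 4, with 733. Of 6 astrocyte markers, mouse dendrites held 4, with 966, of which Aldh1l1 alone had 916. Of the genes in any mouse list, 82.0% were listed in BAT cells, 69.0% in mouse dendrites and 47.3% in mouse somas. The counts of markers are to be read against those shares. The part of these other transcripts in the BAT values of Cntnap4 and Cntnap2 was not tested. Cardiomyocytes held 10 of 12 cardiomyocyte markers, with 41269 in sum, and 9 of the 14 neuron markers were at 0 there.

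The related genes Cntnap3, Cntnap5a, Cntnap5b and Cntnap5c were listed too. All 4 were in mouse dendrites and BAT cells, and all but Cntnap5a in mouse somas and cardiomyocytes. Cntnap5c had 6306 reads in mouse dendrites, 1202 in mouse somas, 24754 in BAT cells and 36 in cardiomyocytes. In mouse dendrites this was 2043 RPM.

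Of 38 partners of these proteins (other adhesion molecules, receptors, channels and scaffolds), 31 were in any mouse list and 20 in any rat list. Of these, 27 were listed in mouse dendrites, 23 in mouse somas, 28 in BAT cells, 18 in cardiomyocytes, 17 in rat dendrites and 16 in rat somas. The shares of all genes listed, in that order, were 69.0%, 47.3%, 82.0%, 49.8%, 78.5% and 59.4%. The partners in BAT cells, cardiomyocytes and rat dendrites lie near them. The partners were not matched for intron length. Of annotated coding genes with at least 200 kb of introns, in a list or not, 79.3% were listed in mouse dendrites and 64.7% in mouse somas. Whether the higher counts in mouse dendrites, mouse somas and rat somas go with intron length was not tested. By reads, with no allowance for intron length, the leading partners were Dlg2, Adam22 and Spnb4 in mouse dendrites, with 3685, 3106 and 1676 reads. In mouse somas they were Nrcam, Dlg2 and Ncam2, with 6752, 5152 and 2334, and in BAT cells Dlg1, Nfasc and Scn8a, with 56868, 26672 and 21131. In cardiomyocytes App, Epb4.1 and Epb4.1l3 led with 10207, 9451 and 6902. In rat dendrites Ncam1, Cask and Ptprg led with 2950, 1058 and 614, and in rat somas Fyn, Ptprg and Ncam1 with 19260, 8766 and 7896. Ptprg, a receptor of several contactins, was thus among the first 3 by reads in both rat lists and in no mouse list.

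The genes whose levels over the 4 mouse lists were most like those of Cntnap4 were Ppfia2, Sipa1l1, Myo16, Lrch3 and Papd5. Likeness was measured as the distance between log2 values of RPM plus 1. It was 1.56 for Ppfia2, which encodes a scaffold of the presynaptic zone, and 2.30 to 2.52 for the others. Ppfia2 had 530 RPM in mouse dendrites, 1833 in mouse somas, 1928 in BAT cells and 1.97 in cardiomyocytes.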

How the data were processed

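RNA-seq of aRNA (26 libraries in the labels) was deposited as 6 pooled lists, 1 per cell type or compartment. The study's text names 5 BAT cells and 8 cardiomyocytes, where the labels have 6 and 9 libraries. Per the study's text, the authors trimmed and aligned paired reads of 50 bases with RUM and kept intron reads that Bowtie placed uniquely. They joined reads up to 500 bp apart into contigs, and removed introns with predicted genes, poly(A) sites or non-coding RNA. The labels' processing notes name the builds mm9 and rn4. The study's text gives a limit of 400 nt for contigs outside dendrites, and the deposited lists hold longer ones.

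The deposited values used are counts: whole numbers of reads per intron, repeated on each contig line and here taken once per transcript and intron. Columns of values left unused numbered 0. Counts were divided by the list's total and multiplied by 1000000. With 1 pooled value per group no test was run. The 9 genes, the partner and marker lists, and the genes named (all 9, plus the first 3 partners per list and the 5 genes most like Cntnap4) were chosen with earlier results of these data known. RefSeq transcripts were matched to GENCODE for mm9 (97.2 to 97.4% per list). Bases and 50-base words were read from the mm9 genome. The interval and word-count steps were tested on simulated data. Python 3.11.15, numpy 2.4.6 and matplotlib 3.10.9 were used. Alternatives were limits on contig length, reads and intron length, other denominators, and other A runs. Some contig-end sequences are not reported here.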

Additional observations from a re-analysis of the deposited data

How the results depend on the processing

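No paired analysis was possible because each list pools its libraries and the result comes from no test, and no replicate could be left out for the same reason. Leaving out the 10 most-read introns of each list gave the 9 genes 0.259% of reads in mouse dendrites, 0.827% in mouse somas, 0.284% in BAT cells, 0.0245% in cardiomyocytes, 0.0938% in rat dendrites and 0.0523% in rat somas. Leaving out their own most-read intron gave, in that order, 0.209%, 0.638%, 0.110%, 0.0138%, 0.0558% and 0.0267%, and the share of introns was 0.257%, 0.350%, 0.177%, 0.107%, 0.189% and 0.151%. Over introns with at least 1 contig of at most 400 nt, all reads of the intron counted, the shares of reads were 0.334%, 0.617%, 0.618%, 0.0190%, 0.0212% and 0.00193%, from 5866, 5480, 47553, 885, 83 and 12 reads. Over introns in which every contig was at most 400 nt they were 0.0854%, 0.0406%, 0.127%, 0.0740%, 0.0372% and 0.00478%. The first limit left 20 introns in mouse somas, 9 in rat dendrites and 3 in rat somas, and 5 genes in mouse dendrites and 2 in rat somas. Introns of at least 32 reads numbered 29 in mouse dendrites (7387 reads), 26 in BAT cells, 7 in cardiomyocytes, 5 in rat dendrites and 3 in rat somas, where 2 genes had one. An intron with 8 times that many reads was held by 2 genes in cardiomyocytes, 0 in rat dendrites and 2 in rat somas. Runs of at least 8 A followed 36.8% of the contigs in mouse somas and 10.2% in BAT cells, and runs of 10 A that may lie in the last 100 nt gave 36.8% in mouse somas. Introns of at least 1000 nt held a contig in 32.7% of cases in BAT cells. The causes of these shifts were not tested beyond what each limit removes. Of the main values under these settings, 67 stayed within their interval or within 1.5 times, and 55 did not. Of values for single genes 234 stayed so, 73 moved and 4 reversed. The log2 ratio of mouse somas to mouse dendrites reversed for Cntn1 (-0.74) and Cntn5 (-0.44) under the first limit on length, and for Cntn4 (-5.11) and Cntn5 (-1.25) under the second, while no ratio changed sign without the 10 top introns. The order of lists by share also changed, and BAT cells fell below mouse dendrites without the most-read intron. Under the first limit on length, the intervals of mouse somas (0.601 to 0.634%) and BAT cells (0.613 to 0.624%) overlapped. Under the second, mouse somas came last of the mouse lists. The limit on every contig, ratios under both limits, counts of contigs with runs in the last 100 nt, ratios without the 10 top introns, and contigs with words found once were chosen after seeing the data. Pooling hides the spread between cells, and a gene with few reads, such as Cntn4 in rat, is poorly measured.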
